A study of Mus musculus with 6 samples.

Results

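The genes described here are Ciita and 8 genes of the class II pathway of the mouse major histocompatibility complex (MHC): the peptide-binding chains H2-Aa, H2-Ab1 and H2-Eb1, the invariant chain Cd74, the peptide editor subunits H2-DMa and H2-DMb1, the editor's inhibitor subunit H2-Oa, and the promoter-binding factor Rfx5. They were chosen by name, and all array probes annotated to these symbols were taken, which gave 17 of 45281 probes and 9 of 19057 named genes. Their RNA was read on Illumina bead arrays in sorted CD4+ Foxp3-GFP+ regulatory T cells induced in the periphery (pTreg), with 3 arrays of Blimp1-deficient (CKO) and 3 of Blimp1-sufficient (Ctrl) cells. CKO cells came from C57BL/6 Prdm1 flox/flox CD4-Cre+ mice (Thy1.2+), in which the CD4-Cre transgene deletes Prdm1, the gene of Blimp1, in all T cells and not in Treg cells alone. Ctrl cells came from Prdm1+/+ CD4-Cre+ mice (Thy1.1+), so both groups carried the same Cre. Naive Foxp3-GFP- CD4+ cells of both kinds, from donors with a Foxp3-GFP reporter, were injected together into RAG1-/- mice, and GFP+ cells were sorted weeks later. The hosts have no B or T cells of their own but keep myeloid, dendritic and innate lymphoid cells. The question addressed is whether loss of Blimp1 went with a change in Ciita or the class II genes in pTreg cells, read replicate by replicate beside the myeloid RNA in each sample.

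Class II molecules present peptides from endosomes to CD4+ T cells. An alpha and a beta chain (H2-Aa with H2-Ab1, and the E alpha chain with H2-Eb1) assemble around Cd74, the H2-DM dimer of H2-DMa and H2-DMb1 exchanges the Cd74 remnant for peptide, and H2-O, of H2-Oa and H2-Ob, inhibits H2-DM. Ciita is the coactivator that switches the whole set on. It binds no DNA itself and is recruited by the RFX complex (of which Rfx5 is a subunit), CREB and NF-Y to the X and Y boxes of these promoters. Dendritic cells, macrophages and B cells are the main class II-expressing cells of the mouse, whereas mouse T cells are known to make little. In B cells becoming plasma cells Blimp1 represses Ciita, which turns class II off.

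The promoters of the members were read for letters of the X and Y boxes, the kind of site to which Ciita is known to be recruited. RefSeq promoter sequences of build GRCm38.p6, from 250 bases before to 50 after a gene's start, were at hand for 6 of the 9 members: H2-Aa, H2-Eb1, H2-DMa, H2-DMb1, H2-Oa and Rfx5. The stretches below run 5′ to 3′ along the gene's own strand from 120 to 21 bases before the start. Capitals mark GNAAC, letters at the core of the X box, where it stands 20 to 40 bases before GATTGG, the letters of the Y box.
H2-Aa, chr17:34287844-34287943, minus strand: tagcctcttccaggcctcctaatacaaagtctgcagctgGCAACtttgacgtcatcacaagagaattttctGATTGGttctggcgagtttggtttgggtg
H2-Eb1, chr17:34305747-34305846, plus strand: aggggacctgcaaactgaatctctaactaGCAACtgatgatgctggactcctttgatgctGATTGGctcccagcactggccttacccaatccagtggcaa
H2-DMb1, chr17:34153071-34153170, plus strand: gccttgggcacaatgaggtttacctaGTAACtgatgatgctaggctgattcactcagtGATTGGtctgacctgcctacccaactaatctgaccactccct
H2-Oa, chr17:34092259-34092358, plus strand: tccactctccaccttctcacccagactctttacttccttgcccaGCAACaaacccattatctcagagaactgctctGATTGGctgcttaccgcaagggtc
H2-DMa, first of 2 starts, chr17:34122712-34122811, plus strand: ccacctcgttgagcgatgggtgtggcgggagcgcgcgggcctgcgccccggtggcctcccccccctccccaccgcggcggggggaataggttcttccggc

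The pair of letters, searched on both strands, stood in 4 of the 6 promoters, H2-Aa, H2-Eb1, H2-DMb1 and H2-Oa, with first letters 31 or 32 bases apart. The window of 20 to 40 bases was chosen after these sequences had been seen. The same pair was in 1.21% of the 32851 promoters of the table, while GATTGG alone was in 16.1% and GNAAC alone in 84.8%. H2-DMa, shown because its level ran opposite to that of the other members, held no such pair in the 300 bases read at either start. Rfx5 held none either. Bases beyond these and other spacings were not searched, so neither gene is shown to lack X and Y boxes. A link between these letters and the levels was not tested. The CREB letters TGACGTCA were in 1.79% of promoters and, of the 6 members, in H2-Aa, 74 bases before the start and between its X and Y letters. AGNGAAAG, letters of the kind Blimp1 binds, were in 8.63% of promoters and stood 212 bases before the start of H2-Aa and, on the other strand, 87 bases before that of Rfx5. A match of letters is a description of the sequence and not a measured site.

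The arrays bear on the labels as follows. Prdm1 had normalized intensities of 561, 341 and 704 on CKO arrays 1, 2 and 3, against 18.9, 50.9 and 49.2 on Ctrl arrays 1, 2 and 3, and rose (adjusted p = 0.028 in limma). No source used here places its probe inside or outside the floxed exons, so its level is no check of the deletion. Il10 fell (adjusted p = 0.0010), with intensities of 99.2 to 128 on the CKO arrays and of 3203 to 5935 on the Ctrl arrays. Foxp3, on which the cells were sorted, averaged 271 ± 142 in CKO and 278 ± 178 in Ctrl cells (SD, n = 3 each) on its brightest probe. A second Foxp3 probe was lower in CKO in all 3 replicates, with 30.9, 19.0 and 37.8 on the CKO and 67.9, 35.7 and 48.6 on the Ctrl arrays (log2 fold change -0.80, adjusted p = 0.66 over probes in limma). Cd3e, a chain of the T cell receptor complex, lay between 2337 and 4760 on the 6 arrays, while the dim Cd4 probe lay between 17.2 and 62.8. The summed level of 6 Treg markers was 15986 to 19527 on the CKO and 26453 to 33904 on the Ctrl arrays. The labels are split on the name of the cells, iTreg or peripheral Treg. They give replicates 2 and 3, which share a slide, the letters P+I and replicate 1, on a slide of its own, none, so slide and stimulation label cannot be told apart. The share of probes above background ran from 32.3% to 38.3% over the arrays, and the precision is limited by having 3 arrays per group.

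Intensities are on a linear scale after normalization over the 6 arrays, and the background level, set from probes of olfactory and vomeronasal receptors, lay between 6.18 and 9.55 per array. Levels of different probes are not compared, since each probe has its own brightness. In RNA of a sorted population, fewer cells of a type and less RNA per cell cannot be told apart.

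**Figure D1:**
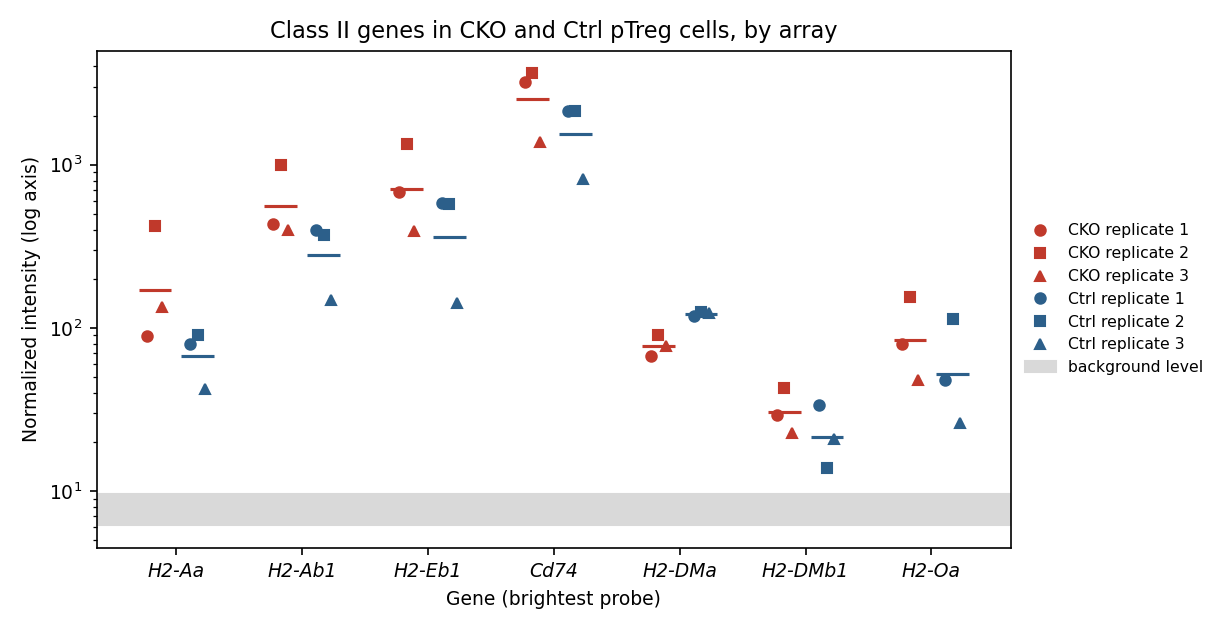
Normalized intensity (log axis) of the brightest probe of the 7 class II genes above background, with CKO arrays in red left of Ctrl arrays in blue, 1 symbol per array by replicate and bars at the mean of the log2 values. In CKO cells the 3 peptide-binding chains, Cd74 and H2-Oa have higher mean levels, with overlapping arrays for all of these but H2-Ab1, and H2-DMa is lower on all 3 CKO arrays.

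The genes of the peptide-binding chains had higher mean levels in CKO than in Ctrl pTreg cells, by 1.95-fold to 2.56-fold, and none of the 3 passed the test over all genes. H2-Aa (probe ILMN_2734729), the A alpha chain, gave 89.4, 421 and 134 on CKO arrays 1, 2 and 3, against 80.1, 90.1 and 41.9 on Ctrl arrays 1, 2 and 3. CKO array 2 was far above the other 5, and the groups overlapped, since CKO array 1 lay just under Ctrl array 2. The log2 fold change was 1.35 (SE 0.57, 2.56-fold, adjusted p = 0.59 in limma), and without CKO array 2 the fold was 1.63.

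H2-Ab1 (ILMN_1226525), the A beta chain that pairs with H2-Aa, gave 435, 1002 and 398 on the CKO arrays, against 397, 373 and 147 on the Ctrl arrays. All CKO arrays were above all Ctrl arrays, by less than 1 unit between CKO array 3 and Ctrl array 1 (397.9 and 397.2). Over all tested genes, 5.95% had every CKO array above every Ctrl array. The log2 fold change was 0.997 (SE 0.49, 1.996-fold, adjusted p = 0.70 in limma). A second H2-Ab1 probe gave 229, 577 and 169 on the CKO and 199, 139 and 40.9 on the Ctrl arrays, and the last gave 195, 485 and 160 on the CKO and 141, 154 and 67.2 on the Ctrl arrays. Their log2 fold changes were 1.44 and 1.12, so the 3 probes had the same direction and CKO array 2 was the highest on each.

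H2-Eb1 (ILMN_1239102), the E beta chain, gave 676, 1338 and 390 on the CKO arrays, against 581, 572 and 143 on the Ctrl arrays. The groups overlapped, with CKO array 3 under Ctrl arrays 1 and 2, yet each CKO array was above the Ctrl array of its own number. The log2 fold change was 0.96 (SE 0.63, 1.95-fold, adjusted p = 0.83 in limma), and without Ctrl array 3 the fold was 1.23. The gene of its partner, H2-Ea, which is defective in C57BL/6 mice, had a probe that was not above background on enough arrays to be tested.

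Cd74 (ILMN_3089584), the invariant chain that guides class II molecules to endosomes, gave 3209, 3629 and 1372 on the CKO arrays, against 2135, 2140 and 819 on the Ctrl arrays. The array of replicate 3 was the lowest of both groups, and the groups overlapped for that reason. Cd74 averaged 2737 ± 1200 in CKO and 1698 ± 761 in Ctrl cells (SD, n = 3 each), with a log2 fold change of 0.70 (SE 0.50, 1.62-fold, adjusted p = 0.86 in limma). Within replicates the CKO array was higher by 0.59, 0.76 and 0.75 on the log2 scale in replicates 1, 2 and 3, the narrowest span of differences among the 7 tested members on their brightest probes. The other Cd74 probes had log2 fold changes of 0.55 and 1.11. The dimmer of them gave 276, 301 and 85.4 on the CKO and 135, 141 and 36.9 on the Ctrl arrays, and its difference was 1.03, 1.09 and 1.21 in the 3 replicates.

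The subunits of the H2-DM peptide editor differed in sign, and neither passed the test over all genes. H2-DMa (ILMN_2866856) gave 66.8, 90.1 and 77.1 on the CKO arrays, against 118, 125 and 123 on the Ctrl arrays. All CKO arrays were below all Ctrl arrays, which held for 7.08% of all tested genes, and the Ctrl arrays were close to each other. The log2 fold change was -0.65 (SE 0.22, 1.57-fold lower in CKO, adjusted p = 0.40 in limma). A second H2-DMa probe gave 32.6, 30.0 and 40.9 on the CKO and 71.9, 54.1 and 38.4 on the Ctrl arrays, with a log2 fold change of -0.63, and in replicate 3 its CKO array was the higher one, by 0.093.

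H2-DMb1 (ILMN_1244977), the beta chain of the editor, was dim, with 29.3, 43.0 and 22.6 on the CKO arrays, against 33.7, 13.8 and 20.9 on the Ctrl arrays. The CKO array was lower in replicate 1 and higher in replicates 2 and 3. Its log2 fold change of 0.51 (SE 0.38, adjusted p = 0.87 in limma) came mainly from replicate 2, and it was -0.049 when both arrays of that replicate were left out. The near-identical neighbour H2-DMb2, with which a probe may share transcripts, gave 19.1, 63.7 and 18.3 on the CKO and 37.2, 20.8 and 19.1 on the Ctrl arrays, again with CKO array 2 the highest.

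H2-Oa (ILMN_2773037), a subunit of the inhibitor of H2-DM that is known mainly from B cells and dendritic cells, gave 79.9, 155 and 48.0 on the CKO arrays, against 48.1, 114 and 26.3 on the Ctrl arrays. Array 2 was the highest and array 3 the lowest of both groups, so the groups overlapped while every CKO array was above its Ctrl partner. The log2 fold change was 0.68 (SE 0.59, 1.61-fold, adjusted p = 0.90 in limma). A second H2-Oa probe had a log2 fold change of 0.51 and a difference of -0.017 in replicate 3. Its partner H2-Ob gave 16.7, 25.6 and 12.7 on the CKO and 38.6 and 25.7 on Ctrl arrays 1 and 2, and was not above the background of 9.55 on Ctrl array 3, so no exact fold is given.

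Ciita itself was at or near background. Of its 2 probes, the first (ILMN_2568407) was above background on 0 of 6 arrays, with normalized intensities of -1.63, -5.37 and -8.12 on the CKO and 3.04, -5.31 and -7.24 on the Ctrl arrays. The second (ILMN_2678211) gave 5.22, -1.84 and 3.29 on the CKO arrays, against 11.5, 0.59 and -3.54 on the Ctrl arrays. It was above background on 1 array, Ctrl 1, where the background level was 6.18, and on no CKO array. Neither probe was tested, and no fold is given, because values below background have no order. Rfx5, the X box-binding subunit, was not above background on any array with either of its 2 probes. A level below an array's background is not a measure of absence, so whether these regulators differed between CKO and Ctrl cells could not be seen on these arrays.

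**Figure D2:**
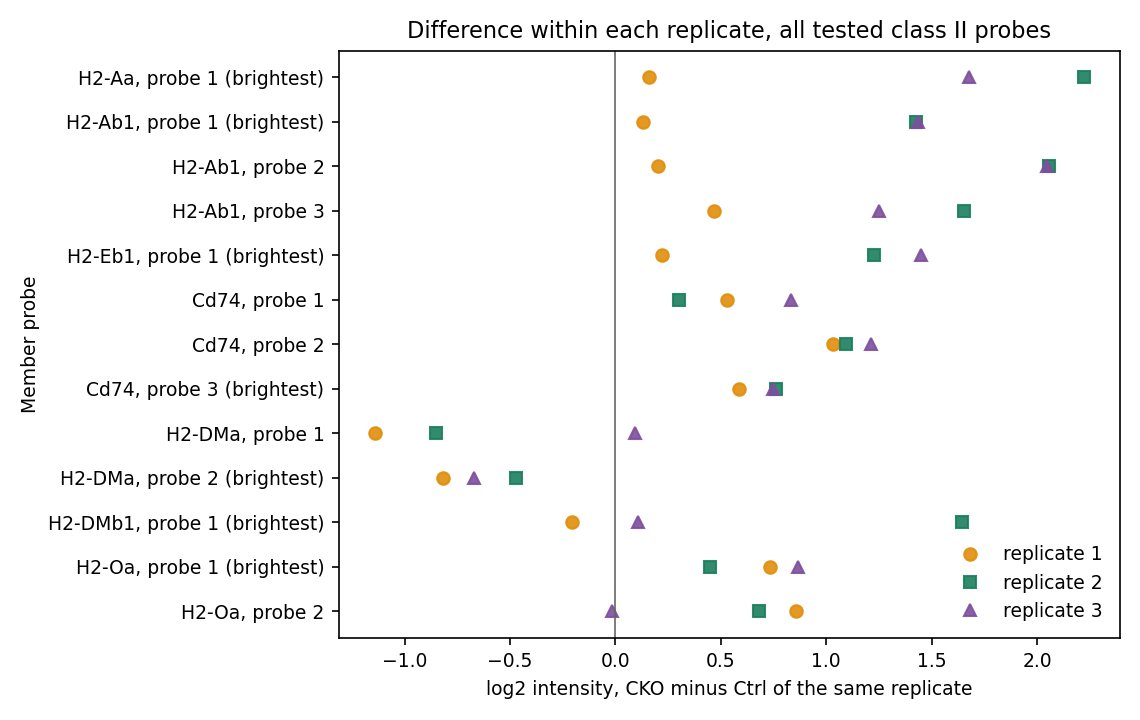
Difference in log2 intensity, CKO minus Ctrl array of the same replicate, for each of the 13 member probes tested, with 1 symbol per replicate. The chain genes H2-Aa, H2-Ab1 and H2-Eb1 differ by 0.13 to 0.47 in replicate 1 and by 1.23 to 2.22 in replicates 2 and 3, the Cd74 probes are higher in CKO in every replicate, and the H2-DMa probes are lower in all but replicate 3 of one probe.

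Counted over the group, 6 of the 7 tested members were higher and 1 was lower in CKO cells, with a median log2 fold change of 0.70, against 0.018 over all 9593 genes tested. At an adjusted p under 0.05, 0 of the 7 genes passed in limma, where 0.271% of all genes passed, and 0 of the 13 member probes passed, where 0.156% of all tested probes did. The thresholds of the study's methods, a change of 1.5-fold or more together with an unadjusted p under 0.05, were met by 2 members, H2-Aa (higher) and H2-DMa (lower), and by 7.42% of all genes. H2-Aa no longer met them without CKO array 2 or 3 or without Ctrl array 1 or 3, where its log2 fold changes were 0.70, 1.53, 1.49 and 1.01. H2-DMa no longer met them without CKO array 1 (log2 fold change -0.55) or Ctrl array 2 (-0.63).

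Within replicates 6 of the 7 members kept one direction. H2-Aa, H2-Ab1, H2-Eb1, Cd74 and H2-Oa (5 of 7) were higher in CKO in all 3 pairs, where 19.5% of all tested genes were, and H2-DMa was lower in all 3 pairs, where 18.1% of all genes were. CKO and Ctrl samples of a number were paired, since the cells were injected together and the labels give them a shared day or slide. With the replicate as a block in limma, the methods' thresholds were met by 5 members higher in CKO (background 4.75% of all genes) and by 1 lower (background 7.28%). These were H2-Aa, H2-Ab1, H2-Eb1, Cd74 and H2-Oa, and the lower one was H2-DMa. In that fit their adjusted p lay between 0.12 (Cd74) and 0.16 (H2-Ab1), so 0 of 7 passed the adjusted threshold with the block either, where 1.91% of all genes did. The members share regulators and are not independent of each other.

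The size of the difference was not the same in each replicate. H2-Aa differed by 0.16 on the log2 scale in replicate 1 and by 2.22 and 1.68 in replicates 2 and 3. H2-Ab1 differed by 0.13, 1.43 and 1.43, and H2-Eb1 by 0.22, 1.23 and 1.45 in replicates 1, 2 and 3. The chain genes therefore had their smallest difference on the slide of replicate 1, whereas Cd74 and H2-Oa (0.73, 0.45 and 0.87) did not stand apart there in the same way. On the slide of replicates 2 and 3 alone, the log2 fold changes were 1.99 for H2-Aa, 1.44 for H2-Ab1, 1.35 for H2-Eb1, 0.76 for Cd74, 0.68 for H2-Oa and -0.58 for H2-DMa. The difference between slides was not tested.

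**Figure D3:**
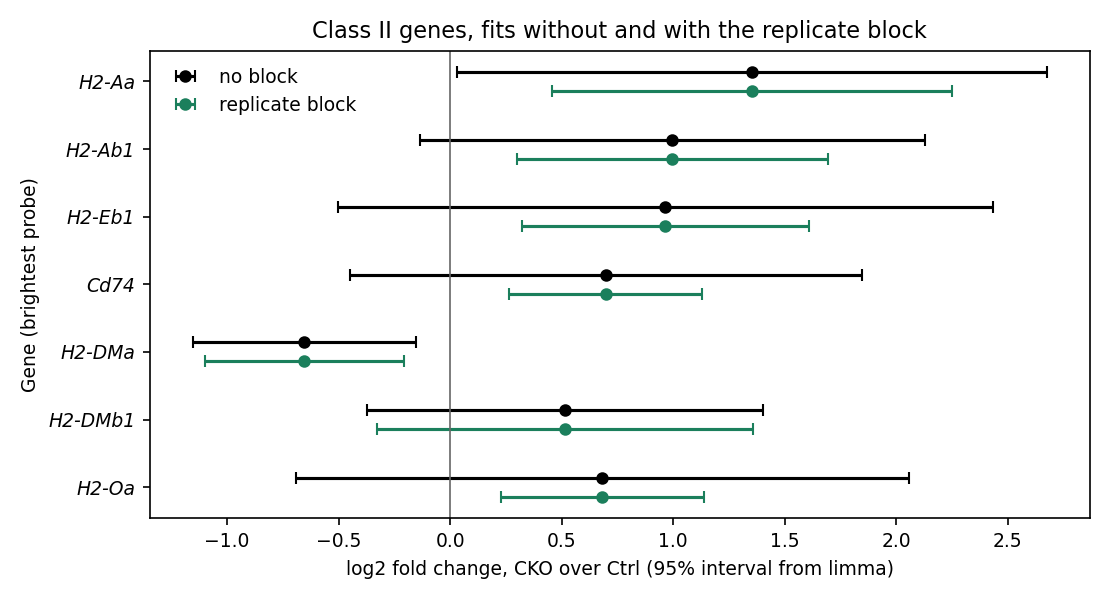
log2 fold change, CKO over Ctrl, of the 7 tested class II genes with 95% intervals from limma, without a block (black) and with the replicate as a block (green). The estimates are the same in both fits. The intervals are not adjusted for the number of genes tested, and the share of all genes with an interval that excludes 0 was not counted. Without the block the interval excludes 0 for H2-Aa and H2-DMa, and with it for all but H2-DMb1. At an adjusted p under 0.05, 0 of the 7 genes passed in limma in either fit.

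The class II levels were read beside RNA of other cell types in each sample. The summed intensity of the class II members above background was 4586, 6679 and 2442 on CKO arrays 1, 2 and 3, against 3404, 3427 and 1321 on Ctrl arrays 1, 2 and 3. Cd74 was the largest part on every array, with 3209, 3629 and 1372 on the CKO and 2135, 2140 and 819 on the Ctrl arrays. Myeloid markers summed to 16215, 2330 and 26091 on the CKO arrays, against 35558, 3078 and 37246 on the Ctrl arrays, with 14 to 20 of the 23 listed genes on the array above background. In each replicate the myeloid sum was lower and the class II sum higher in CKO cells. In replicate 2 the lower myeloid sum rested on S100a8. Without that gene, left out after its values had been seen, the sum was 7955, 1247 and 10172 on the CKO arrays, against 21490, 1214 and 16399 on the Ctrl arrays. Myeloid genes above background on either array of a pair were counted, with a level not above its array's background taken as 0. In CKO, 0 were higher and 20 lower in replicate 1, and 7 higher and 9 lower in replicate 2. In replicate 3, 1 was higher and 14 were lower. On CKO array 1, Csf1r, C1qa, C1qb, C1qc, Csf3r and Spi1 were taken as 0. C1qa, at 6.98 on Ctrl array 1, lay under the background of 7.52 on CKO array 1, so its order is not known. Replicate 2 was lowest in myeloid RNA in both groups. It held the highest class II sum among CKO arrays and, by a narrow margin over replicate 1, among Ctrl arrays. Of the members higher on average in CKO, H2-Aa, Cd74 and H2-DMb1 differed most in replicate 2, and H2-Ab1, H2-Eb1 and H2-Oa in replicate 3. S100a8, a neutrophil and monocyte gene, gave 8260, 1083 and 15919 on the CKO and 14068, 1865 and 20847 on the Ctrl arrays, and Lyz2, the lysozyme of macrophages and neutrophils, gave 248, 60.3 and 132 on the CKO and 667, 29.1 and 159 on the Ctrl arrays. Csf1r, the macrophage growth factor receptor, stayed at or below 20.7 on all 6. The 17 myeloid genes tested had a median log2 fold change of -0.68, and 0 of them met the methods' thresholds without the block, while 9 met them as lower in CKO with it.

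Most markers of the cell types best known for class II were at or near background. Of 11 dendritic cell markers, Itgax, Xcr1, Clec9a, Siglech and Clec10a were above background on no array. The summed dendritic list of 1186, 1519 and 1496 on the CKO and 1535, 1935 and 1759 on the Ctrl arrays was nearly all Cst3 and Irf8, which other cells also express. It was lower in CKO in every replicate. Zbtb46, a transcription factor of conventional dendritic cells, gave 29.5 and 61.7 on CKO arrays 1 and 2, against 32.3 and 28.8 on Ctrl arrays 1 and 2, and was not above background in replicate 3 of either group. Its highest level was on CKO array 2, as was that of each chain gene. Irf8 differed by -1.45, -1.06 and -0.40 on the log2 scale in replicates 1, 2 and 3, and Cst3 by 0.032, 0.0032 and -0.18. Of 8 B cell markers on the array, Cr2 and Fcrla were above background on no array, and Ms4a1, which encodes CD20, and Cd79b, a chain of the B cell receptor, reached at most 11.99 and 9.91. The B cell list summed to 10.4, 40.1 and 20.4 on the CKO and 29.9, 29.6 and 36.3 on the Ctrl arrays. No probe was named Cd79a, Ighm or Igkc. Erythroid markers, led by the haemoglobin genes, summed to 3116, 2310 and 6505 on the CKO and 5942, 2144 and 7898 on the Ctrl arrays, and the T cell list to 19678, 16857 and 16068 on the CKO and 25713, 18838 and 20471 on the Ctrl arrays. The lists for NK and innate lymphoid cells and for epithelium lay at or below 40.9 and 85.2 on every array, and the epithelial marker Epcam was above background on none. Of the Treg markers, Ctla4, Ikzf2 and Tnfrsf18 met the methods' thresholds as lower in CKO, with log2 fold changes of -1.12, -1.45 and -1.23, and of the erythroid markers Slc4a1 did (-1.18), each with an adjusted p above 0.05 without the block (with it, Ctla4 had an adjusted p of 0.043 in limma). The part of carried-over RNA in the class II levels was not tested.

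**Figure D4:**
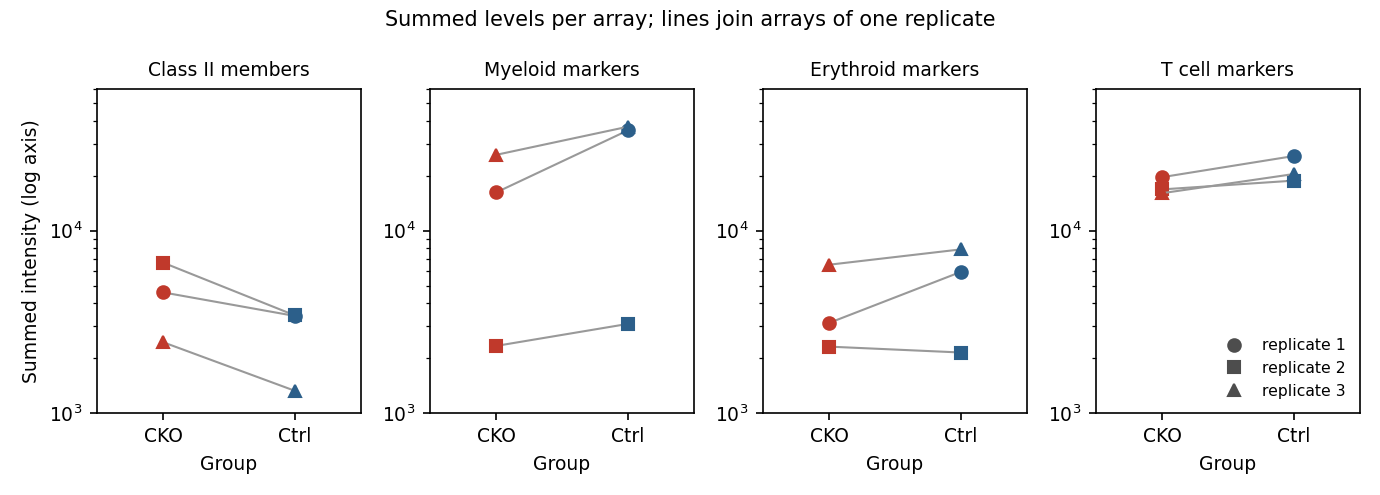
Summed intensity (log axis) per array of the class II members and of myeloid, erythroid and T cell markers above background, with CKO left of Ctrl and lines joining the arrays of a replicate. The class II sum, led by Cd74, is higher in CKO in all 3 replicates. The myeloid and T cell sums are lower in all 3, the myeloid one in replicate 2 through S100a8 alone (1247 in CKO and 1214 in Ctrl without it). The erythroid sum is lower in CKO in replicates 1 and 3.

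Interferon gamma is the classical inducer of Ciita outside professional antigen-presenting cells, and of 9 tested genes of that signal 0 passed the adjusted test without a block and 2 met the methods' thresholds, both lower in CKO. Ifngr1, the ligand-binding receptor chain, gave 87.9, 65.2 and 103 on the CKO arrays, against 352, 156 and 239 on the Ctrl arrays, with no overlap. Its log2 fold change was -1.49 (2.82-fold lower, SE 0.34, adjusted p = 0.18 in limma), and it fell with the replicate block (adjusted p = 0.032). Jak1, a kinase of the receptor, gave 24.0, 21.3 and 18.8 on the CKO and 25.3, 65.2 and 53.4 on the Ctrl arrays (log2 fold change -1.07, adjusted p = 0.41). Ifng itself gave 24440, 18347 and 18597 on the CKO and 18891, 4885 and 27726 on the Ctrl arrays, so it was bright on every array and the groups overlapped. Irf1, a factor that acts on the interferon-responsive Ciita promoter, gave 1475, 1986 and 2004 on the CKO and 2783, 2554 and 2561 on the Ctrl arrays (log2 fold change -0.54, adjusted p = 0.57). The median over the 9 genes was -0.17, and with the block Usf1 also met the methods' thresholds as lower in CKO.

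The other genes of the class II pathway had no common direction. Of 12 tested of 18 listed, 4 were higher and 8 lower, with a median log2 fold change of -0.080, and 0 met the methods' thresholds without the block. Of the NF-Y subunits that bind the Y box, Nfyc gave 1053, 1496 and 1783 on the CKO and 1223, 1638 and 1493 on the Ctrl arrays (log2 fold change -0.031), and Nfyb had a log2 fold change of 0.14. Nfya was near background, with 12.7, 13.5 and 19.1 on the CKO and 14.9, 9.54 and 13.8 on the Ctrl arrays. Cd83, which in dendritic cells keeps class II at the surface, gave 696, 794 and 178 on the CKO and 501, 582 and 101 on the Ctrl arrays. It was higher in CKO in all 3 replicates and lowest in replicate 3 of both groups, as Cd74 was, with a log2 fold change of 0.58 (adjusted p = 0.95 in limma). Lgmn, a protease of endosomes, met the methods' thresholds with the block alone, with 19.0, 14.8 and 11.1 on the CKO and 30.4, 18.2 and 19.6 on the Ctrl arrays. Log2 fold changes were -0.63 for Ctss, the protease that degrades Cd74, and -0.21 for the thiol reductase Ifi30.

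Genes of the class I pathway gave a comparison from the same arrays. Some of them share interferon inducibility and the X and Y boxes with class II. Of 14 listed genes 13 were tested, with a median log2 fold change of -0.066, and 0 met the methods' thresholds with or without the block. Nlrc5, the class I counterpart of Ciita, was above background on all 6 arrays, unlike Ciita, with 676, 988 and 531 on the CKO and 492, 733 and 423 on the Ctrl arrays. Its log2 fold change was 0.41 (adjusted p = 0.88 in limma), higher in CKO in all 3 replicates. B2m, the light chain, differed by -0.17 and H2-D1, a heavy chain, by -0.21 on the log2 scale.

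**Figure D5:**
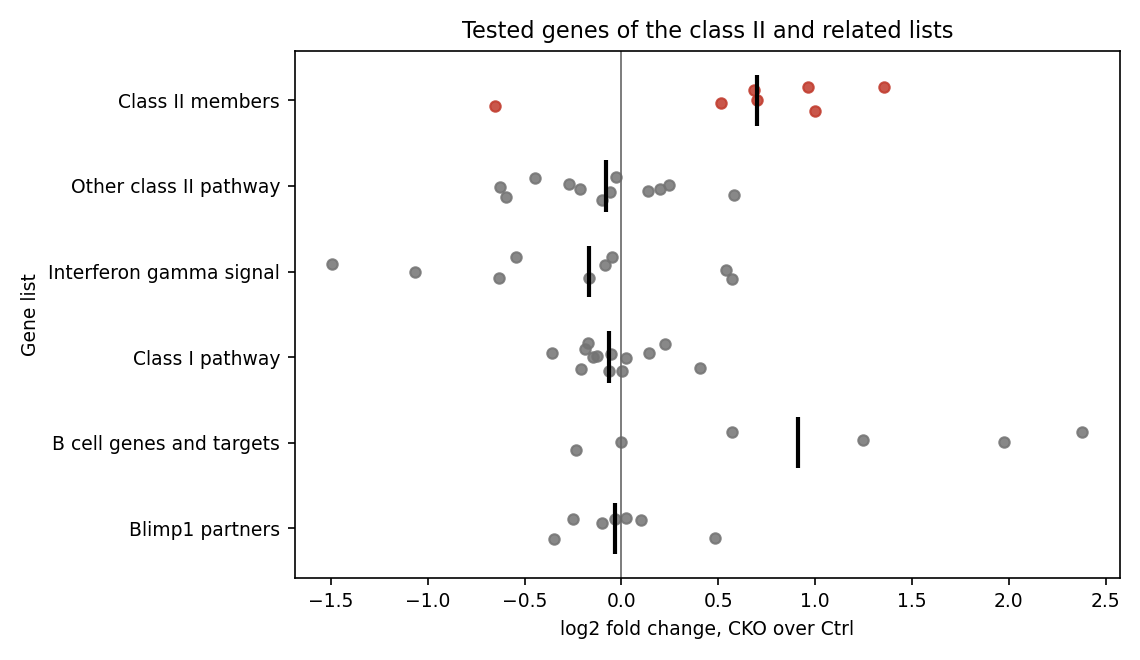
log2 fold change, CKO over Ctrl, of each tested gene (points) in the class II members and in related lists, with bars at the list medians. The class II members have a median of 0.70 and 6 of 7 points above 0. The B cell genes and Blimp1 targets, listed with earlier results of these data known, have a median of 0.91. The medians of the other lists lie between -0.17 and -0.034.

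Of the B cell genes known as Blimp1 targets or parts of the B cell program, listed with Ciita as the case in mind, 6 of 11 were tested. Their median log2 fold change was 0.91. The list was drawn up with earlier results of these data known, and the paper had named Bcl6 as raised in Blimp1-deficient cells. Among the 6, Fcer2a was above background on no CKO array and Ebf1 was near background. The methods' thresholds were met by 3, all higher in CKO, as by 296 of all 9593 genes in that direction. Bcl6, a repressor that opposes Blimp1, gave 500.4, 482 and 306 on the CKO arrays, against 97.9, 91.3 and 136 on the Ctrl arrays, and rose 3.93-fold (log2 fold change 1.98, adjusted p = 0.048 in limma). It was not called under 14 of the 19 alternatives, among them the slide as a block (adjusted p = 0.082) and the deposited values without further normalization (0.051), and its adjusted p over all of them lay between 0.027 and 0.55. Pou2af1, a B cell coactivator, gave 555, 228 and 382 on the CKO and 54.9, 77.0 and 81.4 on the Ctrl arrays, with a log2 fold change of 2.38 (adjusted p = 0.053, and 0.025 with the block). Id3, an inhibitor of E proteins, was dimmer, with 27.4, 36.9 and 10.5 on the CKO and 6.83 and 12.2 on Ctrl arrays 1 and 2, and not above the background of 9.55 on Ctrl array 3 (adjusted p = 0.49). Pax5, Spib, Bach2 and Cd22 were, like Ciita, above background on too few arrays to be tested. Of 7 tested partners of Blimp1, 0 met the methods' thresholds, with a median log2 fold change of -0.034, among them Irf4 (-0.25), Kdm1a (0.022) and Prmt5 (-0.099).

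The members also differed in how their levels ran over the arrays. The mean centred log2 profile of Cd74, H2-Aa, H2-Ab1 and H2-Eb1 was 0.249, 1.399 and -0.142 on the CKO arrays, against -0.026, -0.011 and -1.469 on the Ctrl arrays. CKO array 2 was the highest and Ctrl array 3 the lowest. Each CKO array was above the Ctrl array of its replicate, but the groups overlapped, with CKO array 3 below Ctrl arrays 1 and 2. H2-Oa, which had no part in the profile, ran with it (Pearson r = 0.89 over 6 arrays), H2-DMb1 less so (0.58) and H2-DMa against it (-0.42). The 5 genes outside the group with the most similar profiles were Rnf220 (r = 0.987), Dhx33 (0.984), Whrn (0.983), Egr4 (0.982) and Tbl3 (0.980). These are descriptions over 6 arrays that share slides and replicates, and 68 of 9586 other genes had an r above 0.9. Egr4, an immediate early factor, gave 61.3, 163 and 45.2 on the CKO and 46.0, 36.2 and 16.5 on the Ctrl arrays. No such profile is given for Ciita, which was not measured on all 6 arrays.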

How the data were processed

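Total RNA of sorted pTreg cells was amplified and hybridized to Illumina MouseWG 6v2 arrays, and Teff arrays were left out. The authors exported intensity values from Genome Studio and quantile normalized them. The deposited intensity values are linear, lie below 0 for 35.4% to 36.0% of probes per array after background subtraction, and had been normalized slide by slide. They were quantile normalized again over the 6 arrays. An array's background level was taken at percentile 95 of its 1504 probes for olfactory and vomeronasal receptors. Values below it were raised to it, log2 was taken, and probes above background on at least 2 arrays were kept, of which 17294 were tested as probes. The brightest probe with 1 gene symbol stood for each gene (9593 genes). Symbols were read from the platform annotation, in which 10378 probes have none. Detection p-values were not used here. The array files name no genome build, so coordinates are given for RefSeq promoters alone.

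CKO was compared with Ctrl in limma (3.58.1, R 4.3.3) with no block, since the study's methods name limma and no block, and with Benjamini-Hochberg adjustment over all tested genes or probes. Genes are said to rise or fall only where the adjusted p was under 0.05. The paper calls the samples biological replicates. Replicate numbers pair CKO and Ctrl samples: the labels give replicates 2 and 3 a shared day, those of replicate 1 share a slide, and deviations from the group means of same-numbered samples correlated at 0.51, 0.49 and 0.56 over genes, which are not independent replicates. The block was therefore also fitted. The members, gene lists and marker lists were chosen with earlier results of these data known. Named were all members, Prdm1, Foxp3 and Il10, genes of a list at either threshold or else its 3 brightest, defining markers, and the 5 genes with the most similar profile. Ctss, Ifi30, Nfya, H2-DMb2, H2-Ob, H2-Ea, Irf1, Usf1, Nlrc5, single dendritic and B cell markers and genes named as not measured fall outside it and were picked with their values in view. Of these steps, only the limma fit with no block was checked on simulated data, as log2 gene values with known changes.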

Additional observations from a re-analysis of the deposited data

How the results depend on the processing

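Under 19 alternatives (the replicate or slide as a block, other background levels, floors, filters, normalizations and probe rules, and arrays left out), 0 of the tested members and 0 member probes reached an adjusted p of 0.05 in limma. The fold changes of Cd74, H2-Aa, H2-Ab1, H2-Eb1, H2-Oa and H2-DMa kept their direction in all 19. H2-DMb1 kept it in 18 and ran from -0.049 without both arrays of replicate 2 to 0.89 without those of replicate 1. The methods' thresholds were met by 2 members, by 6 with the replicate block, by 1 with the slide as a block, by 1 with values below 1 raised to 1, and by 0 to 2 with arrays left out. All genes at these thresholds numbered 712, and 1154 with the replicate block. Genes at an adjusted p under 0.05 numbered 26, with 183 under the replicate block, 16 with the slide as a block, 4 with values below 1 raised to 1 and 0 to 10 with arrays left out. With 1 array left out, folds ran from 1.63 to 3.57 for H2-Aa, 1.45 to 2.39 for H2-Ab1, 1.23 to 2.62 for H2-Eb1, 1.18 to 2.19 for Cd74 and 1.14 to 2.35 for H2-Oa, each lowest without Ctrl array 3 except H2-Aa, lowest without CKO array 2. With 3 arrays per group, differences of dim probes near background, those of Ciita and Rfx5 among them, could not be measured, and the causes of these shifts were not tested.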
